A study of Mus musculus with 8 samples.

Results

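The surfactant proteins A, B, C and D of the mouse lung (genes Sftpa1, Sftpb, Sftpc and Sftpd) were followed in lung RNA of 8 pups. A probe set is a group of short probes on the array that is read as 1 value for a transcript. All probe sets annotated to 1 of the 4 gene symbols alone were taken, which gave 6 of the 45101 probe sets on the array. Sftpa1 and Sftpc had 2 probe sets each, and Sftpb and Sftpd had 1 each. Of these 6, 5 lay above the limit set on dim probe sets (log2 6.51) and were tested, and the second Sftpc probe set lay below it.

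Lung tissue RNA of 4 case pups (D04, D34, D48 and D52) and 4 control pups (D02, D40, D50 and D58) was hybridised to Affymetrix arrays, 1 array per pup. All 8 pups were FVB/N mice, and the genotype label is the same for cases and controls and names the transgenes SP-C-rtTA and (teto)7-FGF18. In this system the promoter of the surfactant protein C gene drives rtTA, an activator that works with doxycycline, in the epithelial cells that make surfactant, and rtTA turns on a cassette for fibroblast growth factor 18. The design text speaks of litter pairs of singly and doubly transgenic animals chosen on transgene induction, but no title ties a pup to a litter or to single or double carriage. The labels state neither age nor doxycycline treatment. Array medians lay between log2 7.02 and 7.09 in cases and between 7.06 and 7.12 in controls. Arrays correlated with each other at 0.983 to 0.996 over all probe sets. Precision is limited by having 4 arrays per group.

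Pulmonary surfactant is a film of phospholipids and proteins that lowers surface tension in the alveoli. Surfactant proteins B and C are small hydrophobic peptides that are cut from larger precursors and stored with lipid in the lamellar bodies of alveolar type 2 cells, and they spread and stabilise the film. Surfactant proteins A and D are collectins, proteins with a collagen-like stalk and a lectin head that bind sugars on microbes and take part in innate defence and surfactant turnover. Sftpc is the most specific of the 4 for alveolar type 2 cells, whereas Sftpa1, Sftpb and Sftpd are also made by secretory cells of the small airways. The transcription factor NKX2-1 and forkhead factors of the FOXA family are well known activators of these genes.

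In the RefSeq annotation of GRCm38.p6, Sftpa1, Sftpc and Sftpd lie on chromosome 14 and Sftpb on chromosome 6. Sftpa1 is followed by Mbl1, the gene of another collectin, and Mbl1 is followed by Sftpd. Sftpc lies between Bmp1 and Lgi3. RefSeq promoter sequences were matched for 2 of the 4 genes, Sftpa1 and Sftpb, and the 250 bases before the transcription start are shown because both NKX2-1 and the forkhead factors were also measured on these arrays. Capitals mark CTCAAG, a core of NKX2-1 sites, TGTTTNC, a core of forkhead sites, and the TATA box letters TATAAA, each searched on both strands. Both windows are on the plus strand of GRCm38.p6, chr14:41131538-41131787 for Sftpa1 and chr6:72304360-72304609 for Sftpb.
Sftpa1: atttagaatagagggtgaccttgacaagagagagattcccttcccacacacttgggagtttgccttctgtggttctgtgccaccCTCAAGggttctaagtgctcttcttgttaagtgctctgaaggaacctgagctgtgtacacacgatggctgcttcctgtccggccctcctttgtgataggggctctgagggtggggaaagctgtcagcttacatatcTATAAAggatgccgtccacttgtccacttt
Sftpb: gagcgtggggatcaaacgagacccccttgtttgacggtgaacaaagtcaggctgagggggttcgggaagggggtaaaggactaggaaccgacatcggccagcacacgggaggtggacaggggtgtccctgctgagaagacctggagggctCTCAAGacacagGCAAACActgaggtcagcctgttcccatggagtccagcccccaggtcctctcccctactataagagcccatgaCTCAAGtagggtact
The Sftpa1 window held CTCAAG once, 166 to 161 bases before the start, and TATAAA 30 to 25 bases before it. The Sftpb window held CTCAAG 2 times, 100 to 95 and 15 to 10 bases before the start, and the forkhead core on the other strand 88 to 82 bases before it. No marked motif overlapped another. Of 32851 promoter windows of this length, 13.3% held CTCAAG, 17.8% held TGTTTNC and 12.4% held TATAAA.

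The transgene was checked first. Fgf18 read log2 10.82, 12.09, 9.82 and 7.66 in cases D04, D34, D48 and D52, against 7.05, 7.76, 7.11 and 7.07 in control pups D02, D40, D50 and D58. Cases D04, D34 and D48 lay above every control. The library labelled Case D52 lay inside the control range, so its Fgf18 goes against its label. It stood below control D40 but above D02, D50 and D58. Cases exceeded controls by 2.85 log2 on average (exact permutation test over 70 arrangements, two-sided p = 0.0571, n = 4 each), and pups were chosen on this gene. Each surfactant difference below is therefore also given without that library. The sexes were unequally spread. By Xist and the Y-linked Eif2s3y, 2 cases (D04 and D34) and 1 control (D02) were female.

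No surfactant probe set passed the threshold between case and control. Of the 5 tested, 0 had a limma adjusted p below 0.05, and 0 had an unadjusted p below 0.05, against background shares of 0.0074% and 5.96% of the 27022 probe sets tested. The second count was not stable. With trended and robust moderation in limma the unadjusted p was 0.0447 for Sftpb and 0.0290 for Sftpd, and neither passed after adjustment (limma adjusted p = 0.795 for both). Sftpc and both Sftpa1 probe sets differed by 0.02 to 0.03 log2, and Sftpb and Sftpd by -0.17 log2 each. With each array centred on its median the differences were -0.12 log2 for Sftpb and Sftpd, 0.08 for Sftpc and 0.07 for both Sftpa1 probe sets. In bulk lung RNA, fewer cells of a type and less RNA per cell cannot be told apart. The limma p-values weigh a group difference against the spread between pups of the same group, pooled in part over all tested probe sets. Litter pairs were not used, since the labels do not give them.

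**Figure D1:**
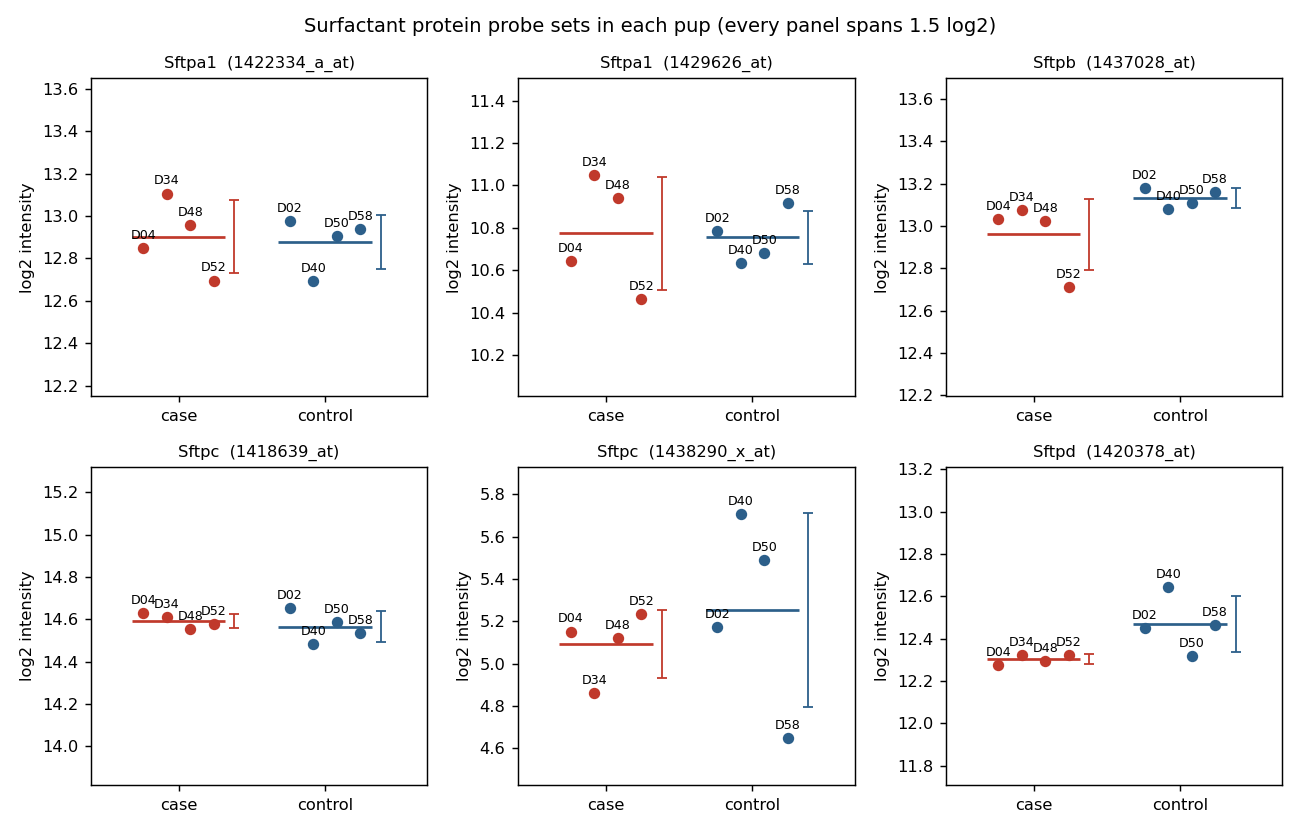
Log2 intensity of each surfactant probe set in the 4 case pups (red, left) and the 4 control pups (blue, right), with 1 point per pup, a line at the group mean and a bar of 1 SD to either side of the mean, and with every panel spanning an equal log2 range. Sftpb of the library labelled Case D52 stands at 12.71 below all others, and the 4 cases lie between 12.28 and 12.32 for Sftpd, where controls reach 12.64.

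Sftpc encodes surfactant protein C, the protein whose promoter drives rtTA in these mice. The brighter Sftpc probe set read log2 14.63, 14.61, 14.55 and 14.58 in cases D04, D34, D48 and D52, against 14.65, 14.48, 14.59 and 14.53 in control pups D02, D40, D50 and D58. The groups overlapped, and the highest and the lowest value both came from control pups. The means were 14.59 ± 0.03 in cases and 14.56 ± 0.07 in controls (SD, n = 4 each), a difference of 0.03 log2 (SE 0.06, limma adjusted p = 0.929). The 95% interval ran from -0.11 to 0.17 log2, or from 0.924 to 1.13 times the control level. Without the library labelled Case D52 the difference was 0.03 log2 (limma adjusted p = 0.880). The whole range over the 8 pups was 0.17 log2, or 1.13-fold.

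This Sftpc probe set was among the very brightest on every array. It ranked 3rd or 4th of 45101 probe sets on each of the case arrays and 3rd to 5th on the control arrays. Its mean ranked 4th, behind 3 probe sets annotated to the alpha globin genes Hba-a1 and Hba-a2. The brightest probe set on each array read between 14.67 and 14.77 in cases and between 14.73 and 14.75 in controls, so Sftpc stood 0.10 to 0.17 log2 under it in cases and 0.09 to 0.25 log2 under it in controls. The 10th brightest probe set lay between 14.19 and 14.22 on case arrays and between 14.19 and 14.32 on control arrays. The other named probe sets among the 10 brightest were those of beta globin, Actb, Tmsb10 and Tpt1, and their values over the 8 pups likewise spanned a narrow band, from 0.14 to 0.26 log2 for the 2 Actb, the Tmsb10 and the Tpt1 probe sets. Not all probe sets near the top were so narrow. Scgb1a1, ranked 14th, spanned 0.88 log2 over the 8 pups, and Lyz1, ranked 16th, spanned 0.46. These 2 were picked after their values were seen.

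The other surfactant genes lay well under the top of the scale. Sftpb ranked 184th by its mean (148th to 288th over the 8 arrays) and stood 1.63 to 2.03 log2 under the brightest probe set in cases and 1.56 to 1.65 in controls. The brighter Sftpa1 probe set ranked 226th, 1.60 to 2.05 log2 under the brightest in cases and 1.77 to 2.04 in controls, and the dimmer one ranked 2140th. Sftpd ranked 400th, 2.38 to 2.49 log2 under the brightest in cases and 2.09 to 2.44 in controls. Brightness depends on the probes as well as on the RNA, so these ranks do not order the RNA levels of the 4 genes.

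**Figure D2:**
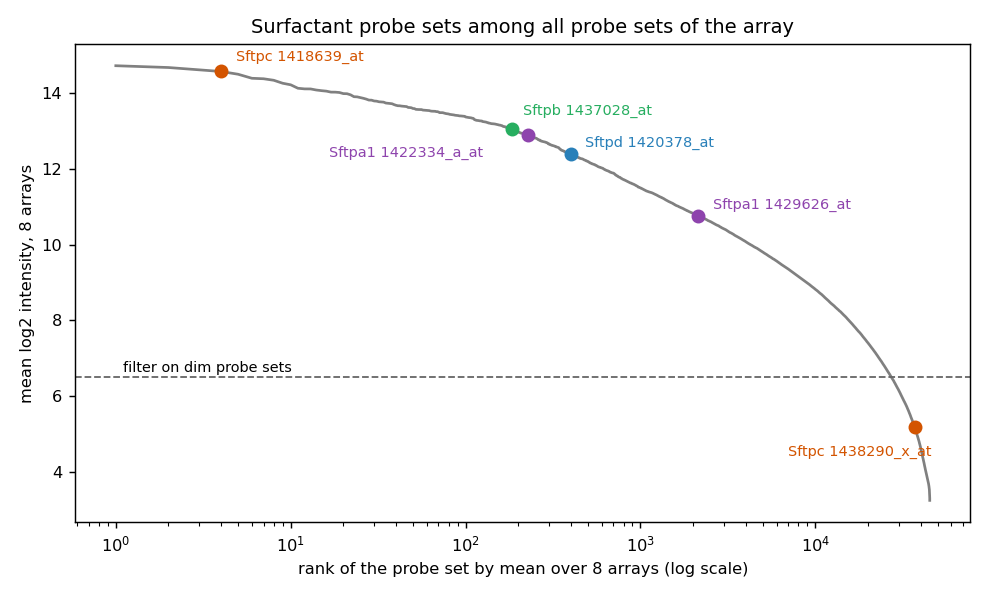
Mean log2 intensity over the 8 arrays against the rank of the probe set on a log axis, for all 45101 probe sets (grey line), with the 6 surfactant probe sets marked. The brighter Sftpc probe set stands 4th, and the other Sftpc probe set stands 36960th, under the dashed limit on dim probe sets.

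Spread between pups narrowed with brightness over the whole array. The median SD within groups was 0.13 log2 for 11535 probe sets with means from 6.51 to 8, 0.12 for 3641 with means from 10 to 12, 0.09 for 417 with means from 12 to 13, 0.06 for 171 with means from 13 to 14 and 0.05 for 15 with means of 14 and above, a bin of few probe sets. The SD of the bright Sftpc probe set within groups was 0.06, close to that of its bin. Whether a change in Sftpc RNA would show in full at this brightness was not tested.

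**Figure D3:**
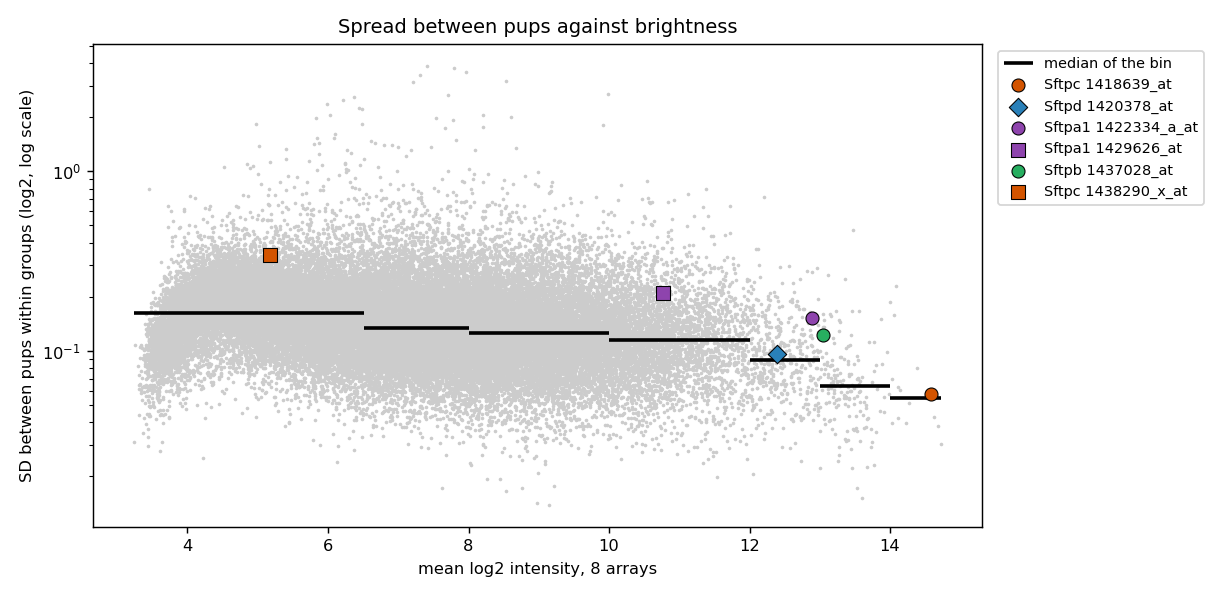
SD between pups within groups (log axis) against mean log2 intensity for all probe sets without Affymetrix controls (grey), with black lines at the median of each brightness bin and the 6 surfactant probe sets in colour. The medians fall to 0.05 in the brightest bin. All 6 surfactant probe sets lie above the line of their bins, the bright Sftpc probe set (0.06) and Sftpd (0.10) only slightly.

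The second Sftpc probe set was dim. It read log2 5.15, 4.86, 5.12 and 5.24 in cases D04, D34, D48 and D52, against 5.17, 5.71, 5.49 and 4.65 in control pups D02, D40, D50 and D58. The groups overlapped, and 18.1% of all probe sets were dimmer. It was not tested, and over the 8 pups it did not follow the bright probe set (Pearson r = -0.28, Spearman rho = -0.10, n = 8, a description). Sftpc thus had no second usable probe set at a lower height, as Sftpa1 had.

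Sftpb encodes surfactant protein B, which newborn mice need to keep the alveoli open. It read log2 13.03, 13.07, 13.02 and 12.71 in cases D04, D34, D48 and D52, against 13.18, 13.08, 13.11 and 13.16 in control pups D02, D40, D50 and D58. Every case lay below every control, but the highest case (D34) and the lowest control (D40) were 0.006 log2 apart. Of all probe sets tested, 2.34% had all 4 cases below all 4 controls, and of the surfactant probe sets this held for 1 of 5. The means were 12.96 ± 0.17 in cases and 13.13 ± 0.05 in controls (SD, n = 4 each).

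The Sftpb difference was -0.17 log2 (SE 0.09, 95% interval -0.36 to 0.02, limma unadjusted p = 0.0775, adjusted p = 0.786). As a ratio this is 0.888 of the control level, with an interval from 0.777 to 1.02. The library labelled Case D52 was 0.33 log2 below the mean of the other 3 cases and set much of this value. Without it the difference was -0.09 log2 (limma adjusted p = 0.641). The pup with the lowest Sftpb was thus the case pup whose Fgf18 lay inside the control range.

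Sftpd encodes surfactant protein D. It read log2 12.28, 12.32, 12.29 and 12.32 in cases D04, D34, D48 and D52, against 12.45, 12.64, 12.32 and 12.46 in control pups D02, D40, D50 and D58. The 4 cases lay close together, with 3 controls above all of them and control D50 inside their range, so the groups overlapped by 0.005 log2. The means were 12.30 ± 0.02 in cases and 12.47 ± 0.13 in controls (SD, n = 4 each).

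The Sftpd difference was -0.17 log2 (SE 0.08, 95% interval -0.34 to 0.004, limma unadjusted p = 0.0544, adjusted p = 0.786), a ratio of 0.891 with an interval from 0.792 to 1.003. Here the library labelled Case D52 had no such weight, and without it the difference was -0.17 log2 (limma adjusted p = 0.482). Control D40 carried more of it, and without that pup the difference was -0.11 log2 (limma adjusted p = 0.903). Among all tested probe sets, 7.96% were lower in cases with an unadjusted p below 0.10, a class that held Sftpb and Sftpd of the 5 surfactant probe sets. Both left it when each array was centred on its median (limma unadjusted p = 0.225 for Sftpb and 0.197 for Sftpd). Sftpb also left it without the library labelled Case D52 (0.226) or without control D02 (0.158), D50 (0.109) or D58 (0.142). Sftpd left it without control D40 (0.127) or case D04 (0.109). With litter as a block, the highest limma unadjusted p over 24 possible pairings was 0.115 for Sftpb and 0.101 for Sftpd.

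Sftpa1 encodes surfactant protein A and was read by a pair of probe sets at different heights. The brighter one read log2 12.85, 13.11, 12.96 and 12.70 in cases D04, D34, D48 and D52, against 12.98, 12.69, 12.91 and 12.94 in control pups D02, D40, D50 and D58. The dimmer one read 10.64, 11.05, 10.94 and 10.46 in cases D04, D34, D48 and D52, against 10.78, 10.63, 10.68 and 10.92 in control pups D02, D40, D50 and D58. On both probe sets case D34 was highest of all 8 pups, and the groups overlapped. The library labelled Case D52 was lowest of all on the dimmer one, and level with control D40 at the bottom on the brighter one.

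The Sftpa1 difference was 0.02 log2 on the brighter probe set (SE 0.10, 95% interval -0.20 to 0.25, limma adjusted p = 0.964) and 0.02 log2 on the dimmer one (SE 0.13, interval -0.26 to 0.30, adjusted p = 0.977). The intervals reach from 0.872 to 1.19 times the control level on the brighter probe set and from 0.833 to 1.23 times on the dimmer one. Without the library labelled Case D52 the differences were 0.09 and 0.12 log2 (limma adjusted p = 0.738 and 0.704). The direction of both turned when other pups were left out, as when they ran without control D40 (-0.04 and -0.02 log2).

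Both Sftpa1 probe sets ordered the pups alike (Pearson r = 0.89, Spearman rho = 0.90, n = 8, and r = 0.85 without the 2 pups farthest from the median). The brighter probe set spanned 0.41 log2 over the 8 pups and the dimmer one 0.59, a ratio of 0.706. Within groups their SDs were 0.15 and 0.21 log2, both above the median of their brightness bins (0.09 and 0.12). Sftpa1 thus varied more between pups of the same group than most probe sets of its height did. The SD pooled over both groups was also above the bin median for Sftpb (0.123 against 0.064) and, by less, for Sftpd (0.096 against 0.089). In neither gene did this hold for both groups. Sftpb had an SD of 0.168 in cases, where the library labelled Case D52 stood apart, and 0.046 in controls. Sftpd had 0.023 in cases and 0.134 in controls. These correlations and spreads describe values that share the array of each pup.

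**Figure D4:**
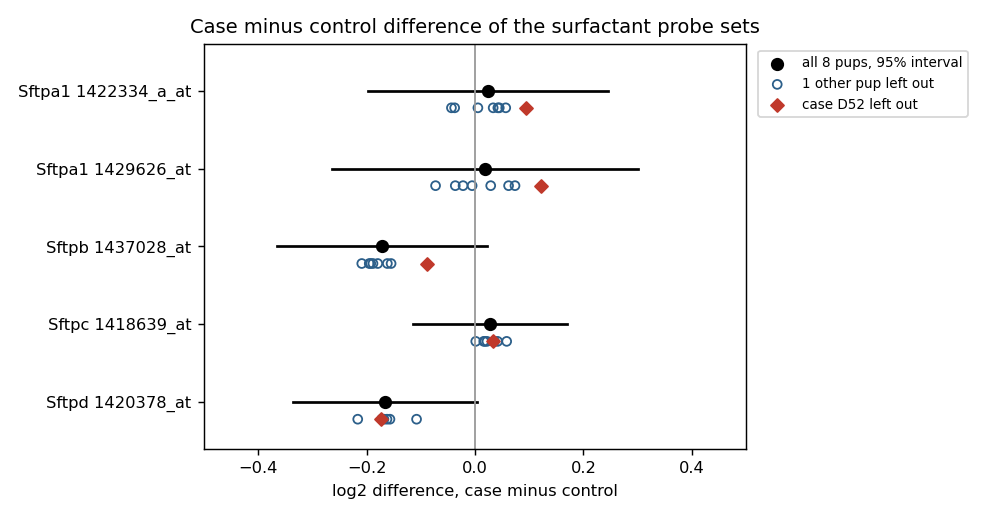
Log2 difference, case minus control, of the 5 tested surfactant probe sets (black points, lines for the 95% interval), with the values after leaving out 1 pup in open circles and those without the library labelled Case D52 as red diamonds. All 5 intervals include 0, and Sftpb moves to -0.09 without that library.

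The 4 genes did not vary as 1 group over the pups. Sftpa1 (brighter probe set) and Sftpb correlated at r = 0.56 (rho = 0.31), which became 0.12 without the 2 pups farthest from the median. Sftpb and Sftpd correlated at r = 0.35 (rho = 0.50), and Sftpc (brighter probe set) and Sftpd at r = -0.60 (rho = -0.48). All are over the same 8 pups and are given as a description with no test. In the authors' deposited table, which holds 1 log2 ratio of case D04 over control D02 per probe set, the 5 tested surfactant probe sets ran from -0.18 for Sftpd and -0.15 for Sftpb to -0.02 for the bright Sftpc. This ratio rests on 1 pair of pups, and the array median was lower in D04 (log2 7.05) than in D02 (7.12).

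The genes whose pattern over the 8 pups was most like each surfactant gene were ranked by Pearson correlation among 12852 other genes, as a description. For Sftpb the nearest was Lpcat1, an acyltransferase that makes the main surfactant phospholipid (r = 0.95, rho = 0.79). Lpcat1 read log2 12.18, 12.09, 12.01 and 11.58 in cases D04, D34, D48 and D52, against 12.33, 12.20, 12.19 and 12.16 in control pups D02, D40, D50 and D58, so here too the library labelled Case D52 was far the lowest. Bex2, Slfn5, Ccdc84 and Srek1ip1 followed (r = 0.95 to 0.89). For Sftpa1 the nearest were Lgi3, Ncoa2, Pramel12, Nucb2 and Avl9 (r = 0.97 to 0.95), and Lgi3 is the gene next to Sftpc on chromosome 14. For Sftpd they were Spint1, Kank1, Anpep, Cux1 and Cdk3 (r = 0.95 to 0.93). For Sftpc they were Slc22a19, Pon3, Apbb2, Cdc26 and Rnf19a (r = 0.94 to 0.92). With 8 pups and 12852 genes, high correlations occur in any such ranking.

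Genes around the surfactant proteins were read from 5 lists, with the brightest probe set for each gene. Of 85 list genes 83 had a probe set and 72 lay above the limit on dim ones, and 1 of the 72 passed the threshold, lower in cases. Over all 72 the median difference was -0.03 log2, with 41 below 0 (56.9%), beside a median of -0.01 and 55.0% below 0 over all 12856 genes read by 1 probe set each. Over all 27022 probe sets 53.9% were below 0. That 1 gene was Abca3, the lipid transporter of the lamellar body, which read 10.49 ± 0.16 in cases and 11.46 ± 0.10 in controls (SD, n = 4 each). Its difference was -0.98 log2 (limma adjusted p = 0.0154). Abca3 had 3 probe sets above the limit, of which the 2 called were both lower and the signs of the 3 differed. It remained lower without the library labelled Case D52 (-0.90 log2, limma adjusted p = 0.0229), and the call was lost when case D04 or D48 or control D02, D40 or D58 was left out. Of all genes read by 1 probe set each, 0.00778% passed the threshold and 6.29% had an unadjusted p below 0.05, and of the 72 list genes 7 had one. Without the library labelled Case D52, 0.0555% of all probe sets passed, with 0 of the 5 surfactant probe sets among them.

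The list for precursor processing and the lamellar body had 17 tested genes, of which 0 rose, 1 fell (Abca3) and 16 did not pass, with a median of -0.07 log2 and differences from -0.98 to 0.22. Among those that did not pass, the proteases that cut surfactant precursors can be given for their role, outside the rule for named genes. Napsa, the aspartic protease napsin A, read 11.47, 11.90, 11.33 and 11.11 in cases D04, D34, D48 and D52, against 11.42, 10.99, 11.26 and 11.25 in control pups D02, D40, D50 and D58 (difference 0.22 log2, limma adjusted p = 0.791). Ctsh, cathepsin H, had means of 12.43 ± 0.15 in cases and 12.44 ± 0.04 in controls (SD, n = 4 each). The groups overlapped for both.

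In the list for surfactant lipid synthesis 0 of 16 tested genes passed, and the median was -0.03 log2. Scd1, a fatty acid desaturase, differed by -1.61 log2 with no overlap of the groups (limma adjusted p = 0.234). The fatty acid binding protein gene Fabp5 differed by -0.25, also without overlap, and Plin2, of the lipid droplet coat, by 0.22 (adjusted p = 0.786 for both). Of the 16 genes 2 thus had no overlap in either direction, and both had all 4 cases below all 4 controls. That order was seen in 2.34% of all tested probe sets, a share over probe sets and for this direction alone.

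In the list of regulators 0 of 17 tested genes passed, and the median was 0.03 log2. The smallest unadjusted p-values belonged to Cebpd (0.32 log2), Cebpb (0.30) and the glucocorticoid receptor gene Nr3c1 (0.27), each with a limma adjusted p of 0.786 and overlapping groups, and the probe sets of Nr3c1 differed in sign. Nkx2-1, given for its role outside the naming rule, read 7.21, 7.06, 7.13 and 7.33 in cases D04, D34, D48 and D52, against 7.36, 7.40, 7.10 and 7.09 in control pups D02, D40, D50 and D58 (difference -0.06 log2, limma adjusted p = 0.909). The forkhead genes Foxa1 and Foxa2, named for the same reason, differed by 0.05 and -0.07 log2 (adjusted p = 0.929 and 0.863).

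In the list of uptake, clearance and collectin receptor genes 0 of 16 tested genes passed, with a median of -0.04 log2. Csf2, the cytokine that macrophages need to clear surfactant, was dim at 6.72 ± 0.13 in cases and 7.01 ± 0.11 in controls (SD, n = 4 each), a difference of -0.29 log2 without overlap of the groups (limma adjusted p = 0.786). It was the 1 gene of the 16 without overlap in either direction, and had all 4 cases below all 4 controls. Of all tested probe sets 2.34% had that order, a share for this direction alone. Lrp1, a receptor that takes part in collectin signalling, differed by 0.22 and Myo18a, reported to bind surfactant protein A, by -0.19 (adjusted p = 0.786 for both).

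In the list of other collectins and relatives 0 of 6 tested genes passed, with a median of 0.02 log2, and 7 more were too dim to test. Mbl1, the neighbour of Sftpa1 and Sftpd, was among the dim ones at 5.99 ± 0.06 in cases and 6.01 ± 0.13 in controls (SD, n = 4 each), and is given for its position outside the naming rule. Colec12, a membrane collectin, differed by 0.28 log2, Itm2a, a BRICHOS-domain relative of the Sftpc precursor, by -0.42 and Gkn3, a gastrokine with the same domain, by -0.20 (limma adjusted p = 0.786 for each).

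**Figure D5:**
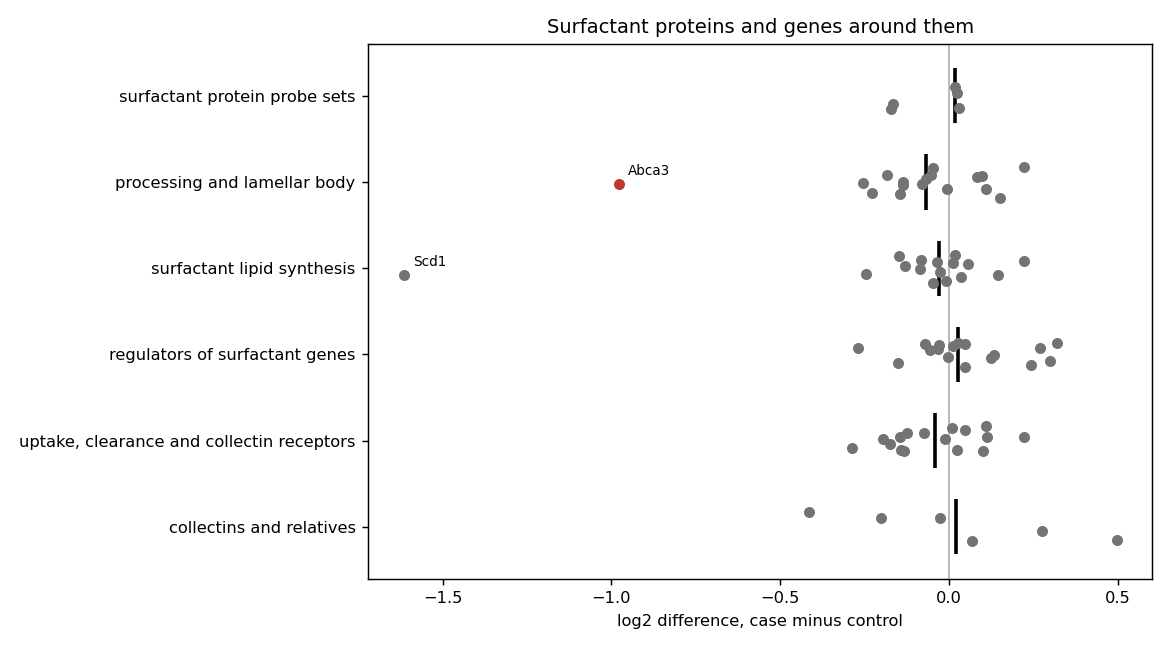
Log2 difference, case minus control, of the 5 tested surfactant probe sets and of the tested genes of 5 lists, with 1 point per probe set or gene, red where the limma adjusted p was below 0.05, and a black line at each median. Abca3 at -0.98 is the 1 red point, Scd1 stands at -1.61, and the surfactant probe sets lie between -0.17 and 0.03.

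Marker genes of the cells that make surfactant proteins, or lie beside them, were set next to these values. Of 6 alveolar type 2 markers other than the surfactant genes 5 had a probe set, all above the limit on dim ones, and their summed intensity ran from 13230 to 19283 in cases and from 17391 to 19656 in controls. Their median difference from the control mean was 0.13, 0.11, -0.21 and -0.29 log2 in cases D04, D34, D48 and D52, against 0.11, 0.07, -0.09 and -0.06 in control pups D02, D40, D50 and D58. These 5 markers went both ways between the groups. Abca3, Lpcat1 and Slc34a2 differed by -0.98, -0.26 and -0.07 log2, and Napsa and Etv5 by 0.22 and 0.24. By the median over the list, the library labelled Case D52, lowest for Sftpb, was also lowest here. The part of cell numbers in the Sftpb value was not tested.

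Of 4 club cell markers all 4 lay above the limit, and their summed intensity ran from 19567 to 45487 in cases and from 39918 to 48604 in controls. Their median difference from the control mean was -0.46, -1.33, -0.54 and -0.03 log2 in cases D04, D34, D48 and D52, against 0.07, -0.13, -0.01 and 0.08 in control pups D02, D40, D50 and D58. Case D34, lowest for club cell markers, had the highest Sftpa1 of all pups and the highest Sftpb of the cases. The library labelled Case D52 was at the control level for these markers, and its Sftpb was the lowest.

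All 7 alveolar type 1 markers lay above the limit, with a summed intensity from 23078 to 31875 in cases and from 31929 to 33157 in controls. All 4 ciliated cell markers lay above it too, with sums from 445 to 549 in cases and from 584 to 625 in controls. By these sums every case lay below every control for both lists, an order that 2.34% of all tested single probe sets showed. By the median difference from the control mean the alveolar type 1 groups overlapped. Cases D04, D34 and D48 read -0.09, -0.54 and -0.10 log2. The library labelled Case D52 (-0.0253) lay above controls D50 (-0.0282) and D58 (-0.0275). The median difference of the ciliated markers from the control mean was -0.28, -0.56, -0.33 and -0.14 log2 in cases D04, D34, D48 and D52. Case D34 stood apart, with the lowest such median of all 8 pups for the club, ciliated, alveolar type 1, fibroblast and endothelial lists and for the markers from outside the lung. Its fibroblast markers went both ways. D34 was lowest of all 8 pups for Col1a1 (11.96) and Dcn (8.75), and highest for Pdgfra (12.58) and Tcf21 (12.78). Without case D34 the surfactant differences were -0.21 log2 for Sftpb, -0.17 for Sftpd, 0.02 for Sftpc and -0.043 and -0.073 for the brighter and dimmer Sftpa1 probe sets (limma adjusted p from 0.959 to 0.982). Of 6 alveolar macrophage markers 5 had a probe set and 4 lay above the limit (Siglecf below it), with sums from 2159 to 2600 in cases and from 2298 to 2482 in controls. Those 4 went both ways, Chil3 and Marco by 1.05 and 0.10 log2 and Mrc1 and Car4 by -0.08 and -0.33. Chil3 ran from 7.73 to 9.11 in cases and from 7.01 to 7.46 in controls, and did not pass the threshold. Markers of muscle, pancreas and liver were also above the limit for 5 of 5 genes, and their sum ran from 2624 to 8540 in cases and from 4487 to 7046 in controls. These too went both ways. Myh6, Actn2 and Acta1 differed by -0.67, -0.77 and -0.50 log2, and Ins2 and Alb by 0.06 and 1.17. Alb ran from 6.16 in control D02 to 11.94 in case D48. The part of these tissues in the surfactant values was not tested.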

How the data were processed

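Lung RNA of 8 pups was measured on 1 array each. The deposited values are linear probe set intensities made by the authors, with the R package affy per the submitters' processing notes. How background, summary and normalization were handled is not stated in the sources used. The 2 deposited tables held equal intensities. The deposited log2 ratio column equalled log2 of D04 over D02 in 45101 of 45101 probe sets (within 1e-06).

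Intensities were taken to log2 without rescaling. Affymetrix controls (64) were left out, as were probe sets under the 40th percentile of the mean (log2 6.51), which left 27022. By the platform annotation, 1 gene symbol belonged to 34945 probe sets, several to 932 and none to 9160. Cases were set against controls by a limma 3.58.1 linear model with moderated variances (lmFit, eBayes; R 4.3.3), without a litter block, with Benjamini-Hochberg adjustment over all 27022 and a threshold of 0.05. The fit was checked on simulated data. The named genes were all surfactant probe sets, Fgf18, list genes past the threshold (otherwise the 3 with the smallest p), the 5 genes most like each surfactant gene, and the genes of the 10 brightest probe sets. Members, lists and motifs were chosen with earlier results of these data known. Alternatives changed the filter, scaling, moderation, weights, covariates, litter block, table, threshold and pups used. Tables and plots were made in Python 3.11.15.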

Additional observations from a re-analysis of the deposited data

Results flagged for a closer look

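In groups of 4, a pup was singled out where its gap to the nearest other value was a large share of the group's range (Dixon's test at the 95% level), which chance does in about 1 of 20 groups. Among 80 groups of named probe sets 5 pups were singled out. The library labelled Case D52 read log2 12.71 for Sftpb, where the other cases ran from 13.02 to 13.07. The other 4 were all control D40. It read 7.76 for Fgf18, where the other controls ran from 7.05 to 7.11, and 10.16 for Lrp1, where they ran from 9.74 to 9.75. It read 6.57 for Gkn3, where the others ran from 6.84 to 6.89, and 8.52 for Avl9, where they ran from 8.72 to 8.73.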

How the results depend on the processing

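No surfactant probe set passed the threshold of 0.05 or of 0.10 under any of the alternatives run, and the smallest limma adjusted p over all of them was 0.330 (Sftpb with array weights). Sftpb, Sftpc and Sftpd kept their direction throughout. Leaving out 1 pup at a time gave -0.21 to -0.09 log2 for Sftpb, 0.001 to 0.06 for Sftpc and -0.22 to -0.11 for Sftpd. Sftpa1 changed direction without passing the threshold. Its brighter probe set gave -0.078 log2 with array weights, -0.011 with sex as a covariate and -0.043 to 0.093 with 1 pup left out, and its dimmer one -0.11, -0.0063 and -0.073 to 0.12. The cause was not tested. With litter as a replicate block over all 24 possible pairings, the limma adjusted p ran from 0.666 to 0.980 for Sftpb and Sftpd. The labels tie no pups to litters, so none of these pairings is known to be the true one. The Fgf18 difference ran from 2.18 to 3.66 log2 with 1 pup left out, and passed only without the library labelled Case D52 (3.66, exact permutation p = 0.0286), left out because of its Fgf18. The count of list genes past the threshold ran from 0 to 1 with 1 pup left out. Unadjusted p fell below 0.05 for Sftpb with trended and robust moderation (0.0447), array weights (0.0335), sex as a covariate (0.0378) and without case D34 (0.0413), and for Sftpd with trended and robust moderation (0.0290), the stricter filter (0.0496) and without control D50 (0.0214). Whether brightness limits the reading of Sftpc was not tested, nor was the dim Sftpc probe set (-0.16 log2).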
